A study of Homo sapiens with 35 samples.

Results

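The Kruppel-like factors are zinc-finger transcription factors that bind CACCC boxes and GC-rich DNA. The 10 genes described here, KLF1, KLF2, KLF3, KLF4, KLF5, KLF6, KLF7, KLF9, KLF10 and KLF13, were chosen by name from 19974 protein-coding genes on chromosomes 1 to 22 and X. Each was described by the ATAC-seq peaks over it, with a summit (the position of highest signal) within 1 kb of its ends, or distal within 50 kb. ATAC-seq uses a transposase to insert sequencing adapters into accessible DNA. A peak covered the start of all 10 genes, against 82.1% of all genes with an annotated start. KLF3 and KLF10 have no annotated start and were counted by their outermost 5′ end. The strongest start peak was at KLF13 and the weakest at KLF1. Dense distal peaks, at a density found for 25.0% of all genes, surrounded 7 of the 10 but not KLF1, KLF4 or KLF5.

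The family shares 3 C-terminal zinc fingers and differs in the parts that recruit cofactors. KLF1, KLF2, KLF4, KLF5, KLF6 and KLF7 are mainly known as activators, KLF3 recruits the CtBP corepressors, and KLF9, KLF10 and KLF13 recruit SIN3A. In blood, KLF1 drives red cell genes and the switch to adult globin, KLF3 restrains part of that programme, KLF2 keeps lymphocytes and endothelium quiescent, and KLF4 takes part in monocyte differentiation.

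Cultures of H1, a long-used human embryonic stem cell line, were differentiated into hematopoietic progenitors. The labels give 35 libraries in 18 groups of 1 to 3, while the design text counts 44. Of a line called doxee17, 11 libraries were untreated (UT) and 12 had doxycycline (DOX), which turns on ectopic MYC per the design text. A further 12 untreated libraries came from H1 itself. Each of these sets covers day 10, 12, 14, 16, 18 and 20, with doxee17 labelled batch 1 and H1 labelled batch 2. The labels do not say whether doxee17 is a single clone or whether libraries came from separate cultures.

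The values are a single list of 308732 peaks for the whole series, with no value per library. Doxycycline, day and line could therefore not be compared, no replicate error exists, and the depth of a library is unknown. All statements are descriptions of this one list and carry no test. A peak made by a share of the cells or of the libraries cannot be told apart from a weaker peak in all of them. Each fold enrichment is the authors' value at the summit over a uniform background, which corresponds to a pileup of 93.5 in the pooled data. Its 95% interval is exact Poisson and covers counting error only. Of 10 blood progenitor genes, 8 had an end summit (no more than 1 kb from a gene end), against 83.0% of all genes, with a median of 25.5-fold against 43.5-fold. Above that all-gene median stood 3 of the 10 (SPI1, 109-fold; RUNX1, 80.9-fold; KIT, 59.8-fold). All 8 of their annotated starts were covered (82.1% over all genes), including those of GATA2 and TAL1, which had no end summit (54.9-fold and 105-fold). Of 6 hepatocyte genes 3 had an end summit, with a median of 1.21-fold, and 1 of 5 annotated starts was covered (SERPINA1, 6.31-fold; ALB, AHSG, APOA2 and FGB not covered). Of 6 pluripotency genes 5 were found by symbol, and 3 of those had an end summit. The median was 1.93-fold, with SOX2 at 17.6-fold, NANOG at 2.42-fold, POU5F1 at 1.93-fold and none at DPPA4 and LIN28A. Among 3 annotated starts 2 were covered, DPPA4 at 20.2-fold and SOX2 at 17.6-fold, while NANOG was not. Both values lay within the range of the blood progenitor starts, 14.8 to 105-fold.

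Around the 10 genes, 321 peaks were found, of which 317 had their summit inside the gene or within 50 kb of it. Peaks lying over the genes numbered 106, and 14 summits lay within 1 kb of a gene end. None of these 14 was also within 1 kb of an end of another coding gene, and no peak was counted for 2 members. Distal peaks, with a summit over 1 kb from every coding gene end, numbered 294. Inside the genes lay 96 of them, with 99 upstream and 99 downstream.

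Gene starts were open in the whole set. KLF3 and KLF10 have no annotated start in the table used, so their outermost 5′ end stands in for it, which need not be the start in use. On that basis a start lay under a peak for 10 of 10 members, against 82.1% of the genes with an annotated start. The median over the 10 members was 125-fold, against 61.9-fold over all genes, and 8 of 10 exceeded that median (50.0% of all genes do). At 100-fold or more stood 8 of 10 members, against 34.1% of all genes. For a gene with several annotated starts the highest value was taken, which favours KLF5 and KLF7 with 2 and 4 starts.

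By strength the start peaks fell into an order from KLF13 at 231.7-fold (95% interval 228.6 to 234.8) and KLF7 at 212.7-fold (209.8 to 215.6) to KLF6 at 198.8-fold (196.0 to 201.7) and KLF10 at 193.5-fold (190.7 to 196.3). KLF2 followed at 128.6-fold (126.3 to 130.9), KLF9 at 121.5-fold (119.3 to 123.7), KLF3 at 120.4-fold (118.2 to 122.6) and KLF5 at 110.8-fold (108.7 to 113.0). KLF4 at 51.3-fold (49.9 to 52.8) and KLF1 at 45.7-fold (44.4 to 47.1) stood below the median of all genes. The intervals of KLF6 and KLF10 overlapped, as did those of KLF9 and KLF3, so their order is not resolved by counting alone. The 3 genes whose products recruit SIN3A had a median of 194-fold and the 6 activators one of 120-fold. These ranges overlapped, since the activators ran from 45.7 to 213-fold.

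**Figure D1:**
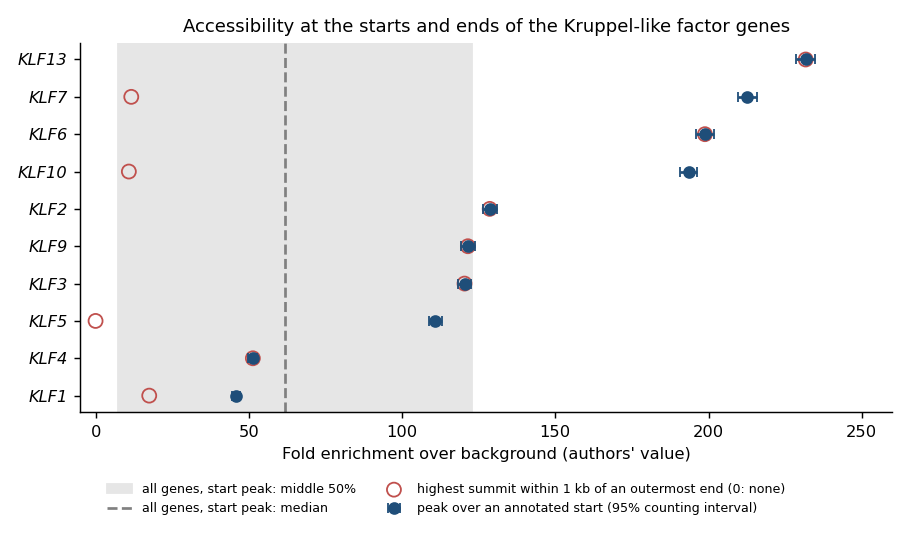
Fold enrichment (x axis, authors' value) of the peak over an annotated start (filled points, bars are 95% counting intervals) and of the highest summit within 1 kb of an outermost gene end (open circles) for each of the 10 genes. The dashed line is the median of all genes with an annotated start and the grey band their middle 50%; KLF1, KLF5, KLF7 and KLF10 have an open circle far to the left of the filled point.

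The start peaks were also wide. The median width of a start peak over all genes was 2141 bp, with an upper quartile of 2954 bp. Of the 10 members 9 exceeded that quartile, against 25.0% of all covered starts. The exception was KLF5, at 2878 bp. Over 4 kb wide were 7 of 10, against 9.50% of all genes with an annotated start. The widest was the KLF6 peak of 15180 bp, followed by KLF13 (9517 bp), KLF10 (5735 bp) and KLF7 (5316 bp). In KLF1 the summit of that peak lay over 1 kb from the annotated start, inside the gene, and in KLF10 over 1 kb from the outermost 5′ end; a summit over 1 kb away on either side was found at 7.18% of all covered starts.

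**Figure D2:**
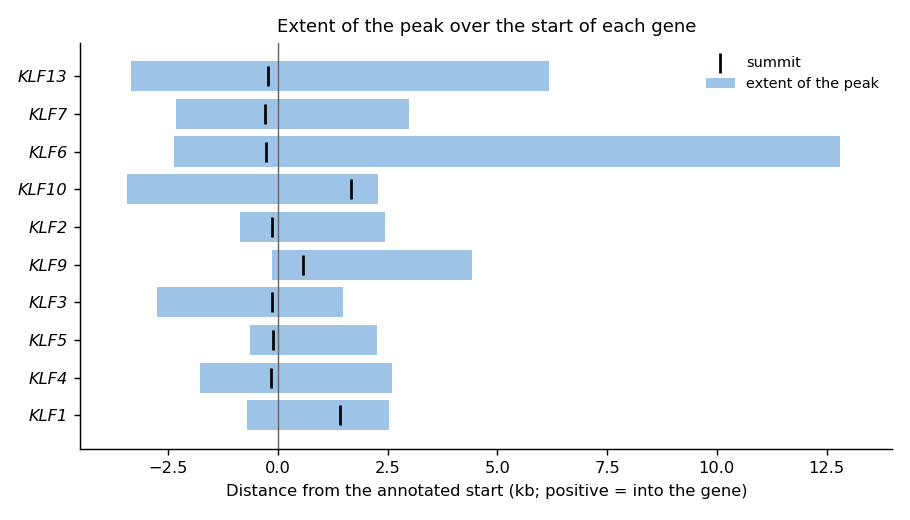
Extent of the peak over the start of each gene (bars) and its summit (black mark), with distance from the annotated start in kb on the x axis and positive values running into the gene; for KLF5 and KLF7 the annotated start nearest to the summit is used, and for KLF3 and KLF10 the outermost 5′ end. The KLF6 peak reaches furthest into its gene, and the summits of KLF1 and KLF10 lie 1.43 and 1.66 kb inside.

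KLF1, the erythroid activator, lies on chromosome 19 (12884422 to 12887201, minus strand, 2780 bp). A 45.7-fold peak of 3235 bp (12884663 to 12887897) covered its start and most of the gene, so that 91.3% of the gene lay under peaks. The summit lay 1426 bp inside the gene. A separate 17.5-fold peak (12883287 to 12884240) lay 619 bp beyond the 3′ end.

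The 250 bases before the KLF1 start are shown because they hold a GATA-type site close to the start. They lie at chr19:12887202-12887451 on GRCh38.p14, minus strand (RefSeq promoter table). Capitals mark TGATAA, read on the other strand as TTATCA and beginning 66 bases before the start, and CCAAT, beginning 238 and 50 bases before it.
KLF1: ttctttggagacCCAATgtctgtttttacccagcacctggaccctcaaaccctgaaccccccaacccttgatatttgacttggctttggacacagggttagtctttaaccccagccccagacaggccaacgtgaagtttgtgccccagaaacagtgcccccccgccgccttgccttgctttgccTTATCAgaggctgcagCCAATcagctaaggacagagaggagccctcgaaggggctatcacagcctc
GATA factors and KLF1 act together on red cell genes. TGATAA occurred in 1 of the 12 member promoters of 300 bases (250 before and 50 after the start), against 5.56% of 22156 promoters of coding genes. TGATAA was added to the search after the sequences were seen. The related form AGATAA occurred in none of the 12, and in 7.88% of all promoters. With a GC content of 57.0% and 6 CpG sites, the KLF1 promoter was poorer in both than most (percentiles 33.9 and 22.6).

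KLF1 sits among other genes: 6 other coding genes lay within 50 kb, against a median of 2. The highest peak within 50 kb of it was not its own. It was a 210-fold peak (12890443 to 12891694) within 1 kb of an end of GCDH, an enzyme gene of amino acid breakdown. Its summit lay 3.80 kb upstream of the KLF1 start. Counting only distal summits, KLF1 had 14 (13.6 per 100 kb, percentile 48.1 of all genes), its own start peak among them. They had a median of 16.3-fold, against 3.31-fold for all distal peaks, and 7 of the 14 reached 10-fold. Of those 7, the highest (76.7-fold, 12872299 to 12873923) lay 14.04 kb from the KLF1 start, inside the neighbouring gene MAST1.

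KLF2, which maintains quiescence in lymphocytes and vessels, also lies on chromosome 19 (16324826 to 16328685, plus strand). Peaks covered 95.5% of this compact gene of 3860 bp. The start peak (128.6-fold, 16323974 to 16327268) had its summit 134 bp before the start. A second peak of 56.2-fold (16327441 to 16331498) had its summit 96 bp from the 3′ end. An end of the noncoding gene KLF2-DT lay within 1 kb of the start summit, so the start peak is shared with it.

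The KLF2 promoter is shown because it was the richest in G and C of the 12, with 80.7% and 49 CpG sites (percentiles 97.5 and 98.2). The 250 bases lie at chr19:16324576-16324825, plus strand, with capitals for the GC box GGGCGG on either strand.
KLF2: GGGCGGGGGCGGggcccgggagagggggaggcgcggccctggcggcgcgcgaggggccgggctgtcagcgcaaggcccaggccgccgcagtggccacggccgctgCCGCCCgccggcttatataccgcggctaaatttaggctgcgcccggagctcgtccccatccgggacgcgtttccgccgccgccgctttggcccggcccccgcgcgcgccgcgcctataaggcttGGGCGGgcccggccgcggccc
GGGCGG occurred in 6 of the 12 member promoters (KLF2, KLF4, KLF6, KLF13, and 1 start each of KLF5 and KLF7), against 56.3% of all promoters.

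Around KLF2 lay 34 distal peaks, or 32.7 per 100 kb (percentile 98.4). Most of them were weak. Their median was 2.29-fold, 12 lay under 2-fold and 6 reached 10-fold. The highest, 74.7-fold (16282551 to 16285610), lay 41.0 kb upstream at an end of KLF2-DT. The next 2 were 27.7-fold at 31.0 kb and 27.1-fold at 8635 bp upstream, both inside KLF2-DT.

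KLF4, one of the factors used to reprogram cells to pluripotency, lies on chromosome 9 (107484852 to 107489769, minus strand). Its start peak of 51.3-fold (107487160 to 107491542, 4383 bp) had its summit 159 bp before the start. A peak of 18.7-fold lay 528 bp beyond the 3′ end. No other coding gene lay within 50 kb, yet only 9 distal peaks were found (8.58 per 100 kb, percentile 24.9). A single one of them reached 10-fold. It measured 30.1-fold (107465303 to 107466510), lay 24.0 kb downstream of the start and coincided with an end of the noncoding gene LINC01509.

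KLF6, a widely expressed early-response gene, lies on chromosome 10 (3775996 to 3785209, minus strand). One peak, 198.8-fold and 15180 bp wide (3772400 to 3787579), covered 100% of the gene. Its width was at the 99.98th percentile of all peaks in the list. Its summit lay 267 bp before the start. No other coding gene lay within 50 kb, and 28 distal peaks gave 25.6 per 100 kb (percentile 91.0). The highest were 35.0-fold (3763918 to 3766354) 19.98 kb downstream of the start and 34.1-fold 19.3 kb upstream. The latter was a wide peak of 8128 bp (3802611 to 3810738).

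KLF4 and KLF6 are shown together because both promoters hold CACGTG, the E-box that MYC and MAX bind. The capitals mark this motif, which begins 157 bases before the KLF4 start and 97 bases before the KLF6 start. The stretches are chr9:107489770-107490019 and chr10:3785210-3785459, both on the minus strand.
KLF4: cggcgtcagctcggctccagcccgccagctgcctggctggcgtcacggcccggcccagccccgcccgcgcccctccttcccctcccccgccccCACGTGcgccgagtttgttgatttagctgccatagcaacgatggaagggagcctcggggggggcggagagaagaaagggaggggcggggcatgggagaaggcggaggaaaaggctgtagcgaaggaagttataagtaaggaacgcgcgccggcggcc
KLF6: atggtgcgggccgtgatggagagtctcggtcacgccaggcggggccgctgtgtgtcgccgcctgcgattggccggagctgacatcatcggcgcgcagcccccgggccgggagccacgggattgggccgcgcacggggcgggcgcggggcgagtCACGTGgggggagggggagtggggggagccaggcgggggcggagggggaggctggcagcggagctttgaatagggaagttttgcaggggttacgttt
CACGTG occurred in 3 of the 12 member promoters, the other being the KLF7 start at 207134137, and in 8.34% of all promoters. A match says nothing on whether MYC was bound. The start peaks of KLF4 and KLF6 differed widely, at 51.3 and 198.8-fold.

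KLF5, an activator of proliferation best known from epithelia, lies on chromosome 13 (73054976 to 73077538, plus strand). It has 2 annotated starts, and these differed in the data. The outer start at 73054976 lay under no peak. The inner start at 73059005 lay under a 110.8-fold peak (73058378 to 73061255) with its summit 106 bp before it. No summit lay within 1 kb of either outermost end, so KLF5 was the single member without an end peak.

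The 250 bases before both starts are shown because they differ as much as the peaks do. The outer lies at chr13:73054726-73054975 and the inner at chr13:73058755-73059004, both on the plus strand, with capitals for GGGCGG and CCAAT on either strand.
KLF5 outer: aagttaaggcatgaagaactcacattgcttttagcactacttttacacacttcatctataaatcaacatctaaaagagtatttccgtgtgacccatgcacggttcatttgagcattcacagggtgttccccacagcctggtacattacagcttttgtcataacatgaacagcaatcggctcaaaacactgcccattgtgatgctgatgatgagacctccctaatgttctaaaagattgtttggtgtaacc
KLF5 inner: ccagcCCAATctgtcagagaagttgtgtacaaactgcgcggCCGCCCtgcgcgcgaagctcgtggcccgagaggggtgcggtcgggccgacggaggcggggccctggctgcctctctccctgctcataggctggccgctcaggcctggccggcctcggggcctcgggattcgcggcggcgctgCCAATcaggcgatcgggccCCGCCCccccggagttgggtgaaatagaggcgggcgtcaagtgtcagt
The outer promoter had 40.7% GC and 4 CpG sites (percentiles 7.22 and 16.3) and neither motif. The inner one had 71.3% and 37 (percentiles 78.3 and 86.4), 2 GC boxes and 2 CCAAT boxes.

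Apart from that peak the KLF5 locus was sparse within 50 kb. There were 11 distal peaks (8.97 per 100 kb, percentile 26.9), and the open inner start was 1 of them. Without it the highest was 7.95-fold (73039072 to 73039670), 15.6 kb before the outer start.

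KLF7, which is known for roles in neurons and in early blood cells, spans 99715 bp of chromosome 2 (207074137 to 207173851, minus strand). Of its 4 annotated starts, 3 lay under one 212.7-fold peak of 5316 bp (207162957 to 207168272). The fourth, at 207134137 inside the gene, lay under a peak of 4.51-fold. No summit lay within 1 kb of the outermost 5′ end, and the 3′ end had one of 11.6-fold. Of 44 distal peaks (22.03 per 100 kb, percentile 82.3), 31 lay inside the gene and only 3 upstream. Besides the start peak, the highest were 29.5-fold (207142071 to 207145123) and 27.8-fold (207107237 to 207108067), both inside the gene.

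KLF3, the CtBP-recruiting repressor, lies on chromosome 4 (38664199 to 38701517, plus strand). Its start peak was 120.4-fold (38661457 to 38665680, 4224 bp), with the summit 142 bp before the start, within 1 kb of an end of the noncoding gene KLF3-AS1. A second strong peak of 95.6-fold (38666517 to 38667845) lay 3.12 kb inside the gene. It was the strongest of a run of 6 peaks of 9.88-fold or more between 3.12 and 11.5 kb from the start. The 3′ end had only weak summits of 1.60 and 2.97-fold. KLF3 had 31 distal peaks (22.6 per 100 kb, percentile 83.9), 10 of them of 10-fold or more, and no other coding gene within 50 kb.

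KLF9, a glucocorticoid- and thyroid hormone-responsive repressor, lies on chromosome 9 (70384604 to 70414657, minus strand). Its start lay near the edge of a 121.5-fold peak of 4574 bp (70410224 to 70414797), which reached 140 bp upstream and 4433 bp into the gene. An even stronger peak of 166.3-fold (70418011 to 70423180, 5170 bp) lay 4.47 kb upstream, inside the noncoding gene KLF9-DT. It exceeded the start peak itself. Peaks of 56.6-fold (70397450 to 70399090) 16.3 kb inside the gene and 40.8-fold (70438139 to 70439287) 24.1 kb upstream followed.

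The KLF9 promoter is shown because it was the poorest of the 12 in G and C, with 32.7% and 1 CpG site (percentiles 1.101 and 3.99). The start peak reached only 140 bp into this stretch, and its summit lay 569 bp inside the gene. The stretch lies at chr9:70414658-70414907, minus strand. Capitals mark CCAAT, found as ATTGG, beginning 90 and 72 bases before the start.
KLF9: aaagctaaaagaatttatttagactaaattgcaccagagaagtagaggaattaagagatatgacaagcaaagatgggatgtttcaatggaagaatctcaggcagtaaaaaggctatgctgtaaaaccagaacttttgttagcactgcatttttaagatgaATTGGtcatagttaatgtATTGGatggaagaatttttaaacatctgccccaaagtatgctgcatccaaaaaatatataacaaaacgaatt
CCAAT occurred in 7 of the 12 member promoters, from 6 genes, and in 34.6% of all promoters. The CACCC-like form CCNCNCCC, close to what the family itself binds, occurred in 9 of the 12, against 65.9% of all promoters. Of the 8 genes searched, KLF1 and KLF9 had none.

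KLF10, an early-response gene of TGF-beta signalling, lies on chromosome 8 (102648784 to 102655725, minus strand). The peak over its outermost 5′ end was 193.5-fold and 5735 bp wide (102653433 to 102659167). Its summit lay 1660 bp inside the gene, so the 5′ end had no summit within 1 kb although it was covered. A second peak inside the gene reached 40.5-fold (102650698 to 102652438), and 73.2% of the gene lay under peaks. KLF10 had 26 distal peaks (24.3 per 100 kb, percentile 88.3). Of these, 4 lay inside the gene, its own start peak among them. Outside the gene they were led by one of 34.3-fold 20.6 kb upstream and one of 32.1-fold 47.5 kb beyond the 3′ end.

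KLF13, a repressor and regulator of lymphocyte cytokine genes, spans 108831 bp of chromosome 15 (31326835 to 31435665, plus strand). Its start peak was the strongest of the 10, at 231.7-fold over 9517 bp (31323495 to 31333011; percentile 95.8 of all starts). The 3′ end carried a peak of 101-fold (31433149 to 31436762), which stood at percentile 98.3 of all 3′ ends. Between them lay further strong peaks of 101-fold (31363994 to 31368447) 39.1 kb from the start, 71.7-fold at 70.6 kb and 56.8-fold at 65.5 kb. With 69 distal peaks, 34 of them inside the gene, KLF13 had the highest density of the 10 (33.0 per 100 kb, percentile 98.6). Of the 69, 15 reached 10-fold.

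**Figure D3:**
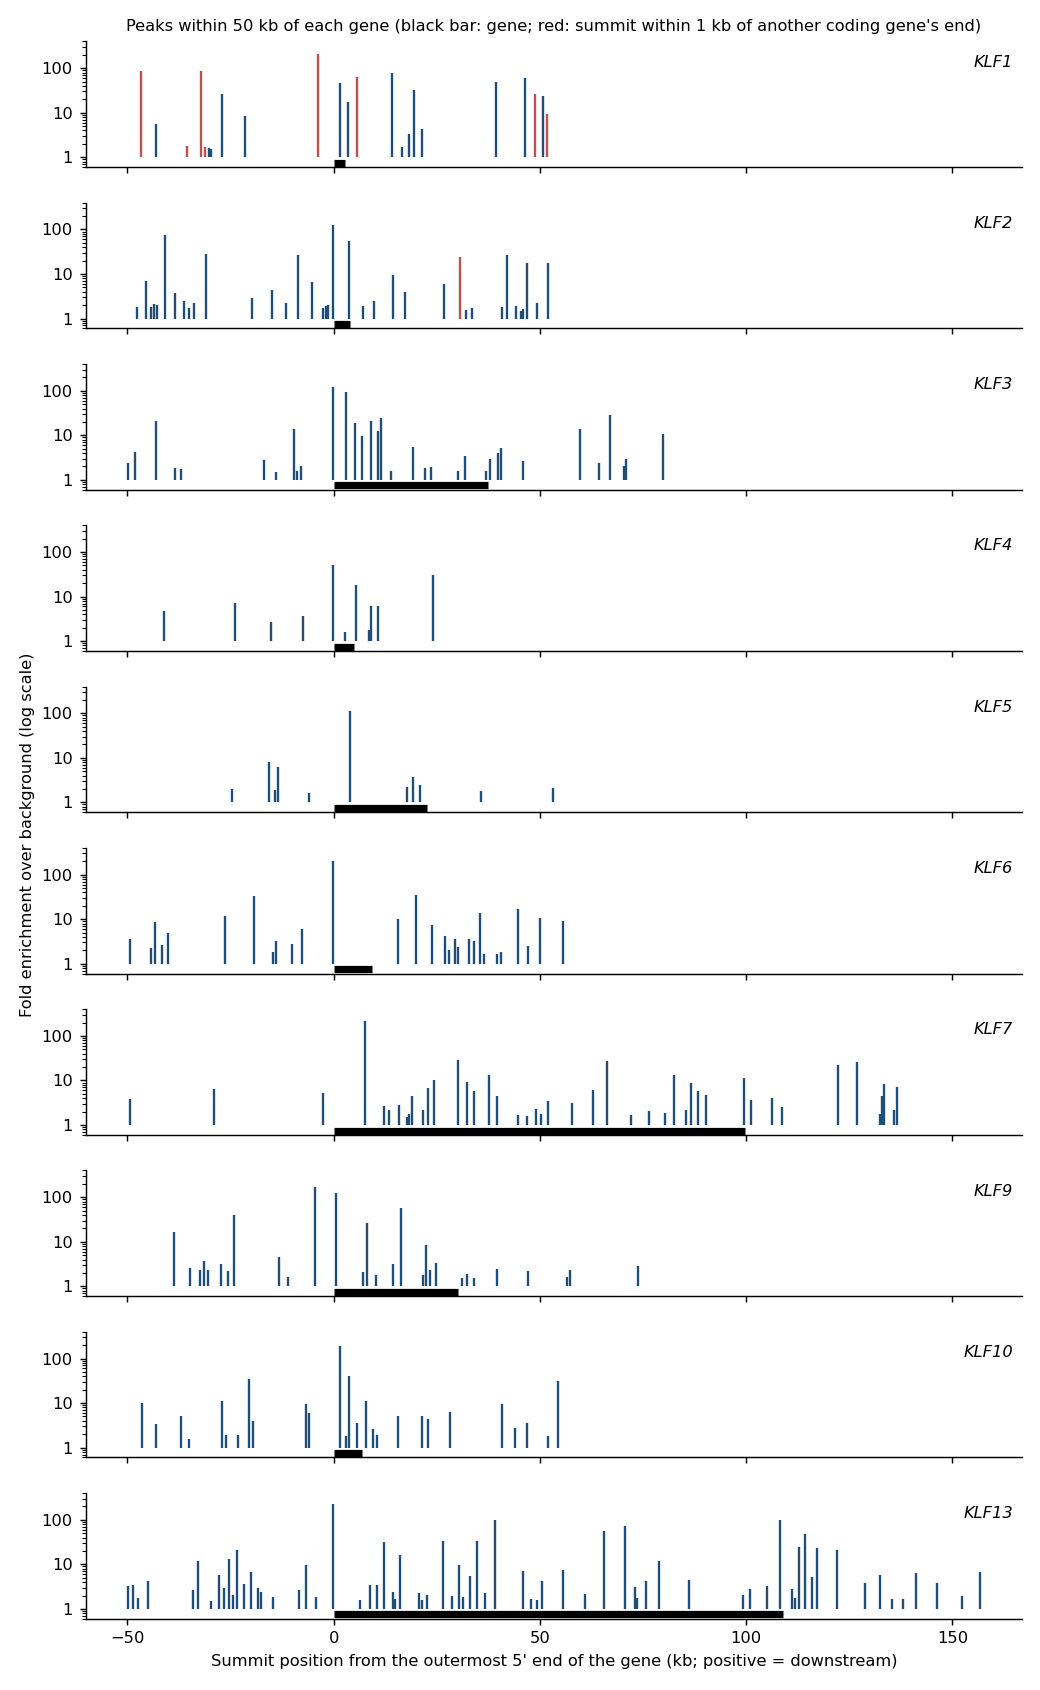
Peaks with a summit within 50 kb of each gene, with summit position from the outermost 5′ end in kb on the x axis and fold enrichment on a log y axis. Black bars are the genes and red lines are summits within 1 kb of an end of another coding gene; KLF1 has 8 such summits, KLF2 has 1, KLF4 and KLF5 have few peaks, and those of KLF7 and KLF13 are spread along the gene.

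Seen from the outermost gene ends, 9 of 10 members had a summit within 1 kb, against 83.0% of all coding genes, and KLF5 had none. Within 0.5 kb it was 6 of 10, against 72.6% of all genes. The median of the highest end summit was 85.8-fold, against 43.5-fold over all genes, and 6 of 10 exceeded that median (50.0% of all genes do). For KLF1, KLF7 and KLF10 this measure gave 17.5, 11.6 and 10.9-fold. Those are 3′ summits, well under their start peaks. A summit lay within 1 kb of the 3′ end in 7 of 10 members (34.8% of all genes), and at 6 of them it reached 10-fold (10.6% of all genes). The 10.9-fold KLF10 summit was just inside that limit, 995 bp from the end, and a 1.58-fold KLF9 summit was just outside it, 1034 bp away.

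Distal density was measured as summits per 100 kb, since the genes differ in length. The median of the 10 members was 22.3, against 14.02 over all genes. Above the upper quartile of all genes, 19.8, stood KLF2, KLF3, KLF6, KLF7, KLF9, KLF10 and KLF13, which is 7 of 10 against 25.0% of all genes. KLF1 lay near the median, and KLF4 and KLF5 near the lower quartile of 8.61. The low place of KLF4 and KLF5 depended on the span. Counted within 20 kb, KLF4 (15.6) and KLF5 (14.4) stood above the all-gene median of 13.6. Both stayed below the upper quartile of 20.4 for that span. With only distal peaks of at least 10-fold within 50 kb, 6 of 10 exceeded the upper quartile. KLF1 was then among them (percentile 90.1), while KLF7 (67.4) and KLF9 (65.0) were not. The single distal peaks were not much stronger than elsewhere, with a median of 3.50-fold against 3.31-fold for all distal peaks, and 22.4% against 19.4% reaching 10-fold. Those of the members include the start peaks of KLF1, KLF5, KLF7 and KLF10, whose summits lay over 1 kb from every coding gene end. No other coding gene lay within 50 kb of 5 members (KLF3, KLF4, KLF6, KLF7 and KLF10), against 11.2% of all genes. At the 50 kb limit, a 2.37-fold summit of KLF3 at 49.8 kb was just inside. A 9.52-fold summit of KLF2 at 50.2 kb and the 238-fold peak at CALR, 51.3 kb from KLF1, were just outside.

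**Figure D4:**
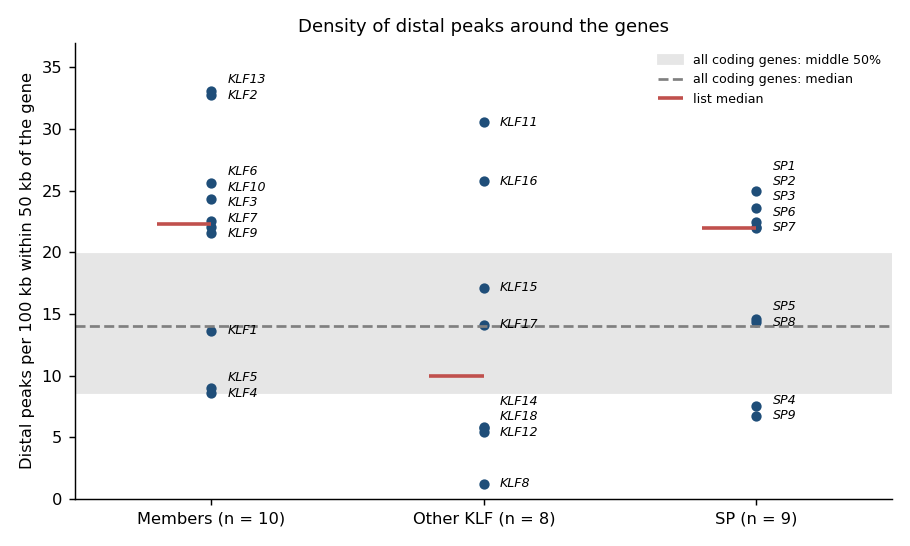
Distal peaks per 100 kb (y axis) for the 10 members, the 8 other KLF genes and the 9 SP genes, 1 point a gene, with red lines for list medians, a dashed line for the median of all coding genes and a grey band for their middle 50%. Names in crowded places are moved up in the order of the points. Above the band lie 7 members. The medians are 22.3 for the members, 9.96 for the other KLF genes and 21.99 for the SP genes.

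Related genes were described in the same way. Of the 8 other KLF genes, 6 had a covered start, against 82.1% of all genes with an annotated start. The median of the 8 was 25.7-fold, with values from 0 (KLF17 and KLF18) to 194-fold (KLF16). SP factors bind the same GC boxes, and all 6 with an annotated start were covered, with a median of 207-fold led by SP1 (358-fold). In distal density the 9 SP genes had a median of 21.99 per 100 kb, close to the 22.3 of the members. The upper quartile of all genes was exceeded by 5 of these 9 and by 2 of the 8 other KLF genes. Blood progenitor genes had a median of 24.3, with 7 of 10 above that quartile. Among 12 cofactors, which include the SIN3A and CtBP complexes and histone acetyltransferases, all 12 starts were covered, against 82.1% over all genes. Their median start peak was 107-fold, with SIN3A at 329-fold and EP300 at 193-fold. By end summits, a different measure, the cofactors had a median of 70.7-fold. Red cell genes known as KLF1 targets had an end summit in 15 of 16, against 83.0% of all genes. Their end summits were mostly low, with a median of 9.46-fold. ZBTB7A, a repressor of fetal globin, stood higher at 150-fold. Targets of KLF2 and KLF4 had an end summit in 10 of 10, again against 83.0% of all genes. Their median was 12.99-fold, led by the cell cycle inhibitor CDKN1C (83.6-fold). Both target lists lay below the 43.5-fold median of all genes in end summits, and at 19.4 and 22.7 distal peaks per 100 kb above the median of 14.02. Annotated starts were covered in 8 of 9 red cell targets and in 6 of 6 targets of KLF2 and KLF4. The median start peaks were 36.6-fold and 37.7-fold, below the 61.9-fold of all genes.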

How the data were processed

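The authors trimmed 75-nt paired ATAC-seq reads with Trim Galore 0.6.5, aligned them with Bowtie2 2.2.8 and used Picard 2.2.4 and MACS 2.1.0, per the submitters' processing notes, which name GRCh38.p13 and hg38. How libraries were pooled for peak calling is not given in the sources used here. The deposited list gives for each peak a score, a fold enrichment (ratio) at the summit and a −log10 p-value, all the authors' own. Only the fold and, for ranking, the −log10 p-value were used. Each fold was read as the ratio of pileup to background, with a single count added to both. The background of 93.5 was chosen as the value that brought the pileups closest to whole numbers. With it, pileups were whole (within 0.1) for 100% of 243638 peaks with a pileup under 1000, and Poisson intervals rest on that. The background was fitted on this same list, so this is no independent check. The strongest start peak of each member had a pileup above 1000 and was not among the peaks checked. Depth per library is unknown.

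Gene ends and starts came from RefSeq (GRCh38.p14), with 19974 coding genes and 15814 with an annotated start. Exons and introns were not analysed here. KLF3 and KLF10 have no promoter entry, their strands were taken from general knowledge, and they count among the 15814 by their outermost 5′ end. Motifs were searched on both strands, overlaps allowed, in 300-base promoters. Placement was tested on simulated peaks, recovering 200 of 200 planted end peaks among 19974 genes. Each was planted inside the 1 kb window of the gene end with the lower coordinate, without the real peaks. The recovery therefore checks the code only. Python 3.11.15, pandas 2.3.3 and scipy 1.17.1 were used. The members and the gene lists were chosen with earlier results of these data known, as were the limits of 10-fold, 100-fold and 4 kb. Named genes of a list are the 3 with the highest end summit and those without one, of which not all are reported here; the other genes named were picked with their values in view. Alternatives changed the windows, the peaks kept and the overlap.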

Additional observations from a re-analysis of the deposited data

How the results depend on the processing

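Of the counts of members, those with an end summit ran from 6 to 10, those above the all-gene median from 5 to 8 and those above the distal upper quartile from 6 to 7 over the alternatives run. With a window of 0.5 kb, 6 of 10 members had an end summit against 72.6% of all genes, so the members' share turned from above that of all genes to below it. The median distal density moved to 11.7 per 100 kb (all genes, 6.66) when only the 50% of peaks with the highest significance were kept, and to 5.69 (2.78) with distal peaks of at least 10-fold, an alternative chosen after seeing the data. The median end fold moved to 31.5 (27.9 over all genes) with a window of 0.5 kb. Without peaks that cover an annotated start, also chosen after seeing the data, the median distal density was 22.1. Taking the peak over the start in place of the end summit moved the value of 4 members, KLF1, KLF5, KLF7 and KLF10. No paired analysis was possible because the list holds no value per library, and for the same reason no library could be left out.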
